A study of Mus musculus with 96 samples.

Results

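The initial part of the proximal convoluted tubule (PTS1) was compared with the distal convoluted tubule (DCT), the coiled segments at opposite ends of the mouse nephron. The comparison used every library labelled PTS1 or DCT, 11 of the 93 microdissected libraries of the series; its 3 single-cell runs were not used. The 5 PTS1 libraries came from 3 mice and the 6 DCT libraries from 3 mice, of 53 mice in all. Each library was made from tubule dissected by hand from the kidney of a pathogen-free male C57BL/6 mouse aged 6 to 8 weeks, kept on normal chow and untreated, and its polyadenylated RNA was amplified with an ultra-low input kit. Expression was deposited as TPM, a transcript's length-corrected share of all transcripts in its library. Libraries of the same mouse and segment were averaged as log2(TPM + 1), the mouse was the replicate, and a level is given per mouse in TPM or as mean ± SD over 3 mice (3 to 5 in other segments). The series numbers 53 mice for 53 combinations of mouse number and segment, so PTS1 and DCT were taken to come from different animals. Segment and animal can then be told apart only through the spread between mice of a segment.

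The proximal convoluted tubule takes back most of the filtered sodium, glucose, amino acids, phosphate and bicarbonate, swallows filtered protein by endocytosis, secretes organic ions, makes glucose and activates vitamin D. Its brush border carries many sodium-coupled cotransporters, and it burns fatty acids and other fuels rather than glucose. The distal convoluted tubule is a short segment beyond the macula densa that reabsorbs sodium chloride through the thiazide-sensitive cotransporter, under the control of WNK kinases and potassium channels, and sets the final excretion of magnesium and much of that of calcium.

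The defining genes of each segment went with the labels. The transcript of the apical sodium phosphate cotransporter, Slc34a1, was at 9764, 9137 and 9579 TPM in the PTS1 mice and at 87.0, 1.84 and 2.74 TPM in the DCT mice. The transcript of the thiazide-sensitive sodium chloride cotransporter, Slc12a3, was at 0.593, 0.709 and 1.08 TPM in the PTS1 mice and at 5880, 5520 and 5824 TPM in the DCT mice. The mice of the segments did not overlap for either gene, and the log2 difference, PTS1 minus DCT, was 9.92 ± 0.77 (SE; limma, adjusted p = 8.22e-15) for Slc34a1 and -11.65 ± 0.36 (adjusted p = 6.11e-29) for Slc12a3. All 8 PTS1 markers (Slc34a1, Slc34a3, Slc5a2, Slc5a12, Lrp2, Cubn, Hnf4a and Spp2) were higher in PTS1, and all 8 DCT markers (Slc12a3, Pvalb, Calb1, Trpm6, Wnk4, Klhl3, Egf and Emx1) were higher in DCT.

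Some libraries stood apart in the markers of other segments. In the second DCT library of mouse 1 Slc34a1 was at 289.56 TPM, against 0.62 to 25.63 TPM in the other 5 DCT libraries. In the second PTS1 library of mouse 1 the kidney androgen-regulated transcript Kap, a gene of the straight proximal tubule, was at 1479 TPM, against 3.95 to 23.4 TPM in the other 4. Leaving out both libraries, an alternative added after their values were seen, gave 5365 called genes where all libraries gave 5233, and moved the difference of Slc34a1 to 10.50. Of 10 genes listed for the thick limb 5 were higher in DCT, 1 was higher in PTS1 and 4 were not called. Their summed level was 3237 to 4271 TPM in the DCT libraries and 184 to 201 TPM in the PTS1 libraries. Kcnj1 (1747 to 1930 TPM) and Umod (1337 to 2291 TPM) made up most of the DCT sums. Cldn10 (176 to 192 TPM) made up most of the PTS1 sums. The sums therefore do not measure thick limb cells alone. Slc12a1, the thick limb cotransporter, was at 37.9 to 81.6 TPM in 3 DCT libraries and at 0.23 to 2.03 TPM in the other 3. Slc12a1 was at 6131 ± 836 TPM in the cortical thick limb (CTAL, 5 mice). Its difference between PTS1 and DCT was -2.65 with all mice and -1.24, not called, without DCT mouse 1.

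Markers of intercalated, vessel and immune cells were also higher in the DCT libraries. The summed level of 10 intercalated cell genes was 728 to 1535 TPM in DCT and 2.53 to 11.2 TPM in PTS1, and 10 of 10 were higher in DCT. Of 10 genes listed for principal and connecting cells 8 were higher in DCT, but 3 of these (Klk1, S100g and Trpv5) had their highest mean of the 15 groups in DCT itself and so cannot tell other cells from DCT cells. Fxyd4, a sodium pump regulator of the collecting duct, was called toward PTS1 (42.3 ± 3.11 TPM in PTS1), with a log2 difference of 3.15. The defining gene Aqp2, the water channel that marks principal cells, was at 103 ± 43.4 TPM in DCT and 6179 ± 1240 TPM in the connecting tubule (CNT). Of 10 endothelial genes 9 were higher in DCT (summed level 195 to 574 TPM, against 43.3 to 138 TPM), as were 8 of 10 leukocyte genes (351 to 684 TPM, against 52.9 to 143 TPM), a count that was 2 under median ratio rescaling, in which each mouse is scaled by its median ratio to the mean of all mice over genes above 0 in every mouse. Of 10 stromal genes limma called 0, and 0 had an unadjusted p below 0.05. The defining podocyte gene Nphs1 was near 0 in both segments (0.0926 ± 0.0647 TPM in PTS1, 0 ± 0 TPM in DCT), and 1 of 8 glomerular genes was higher in each segment. In bulk tubule RNA, fewer cells of a type and less RNA per cell cannot be told apart.

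**Figure D1:**
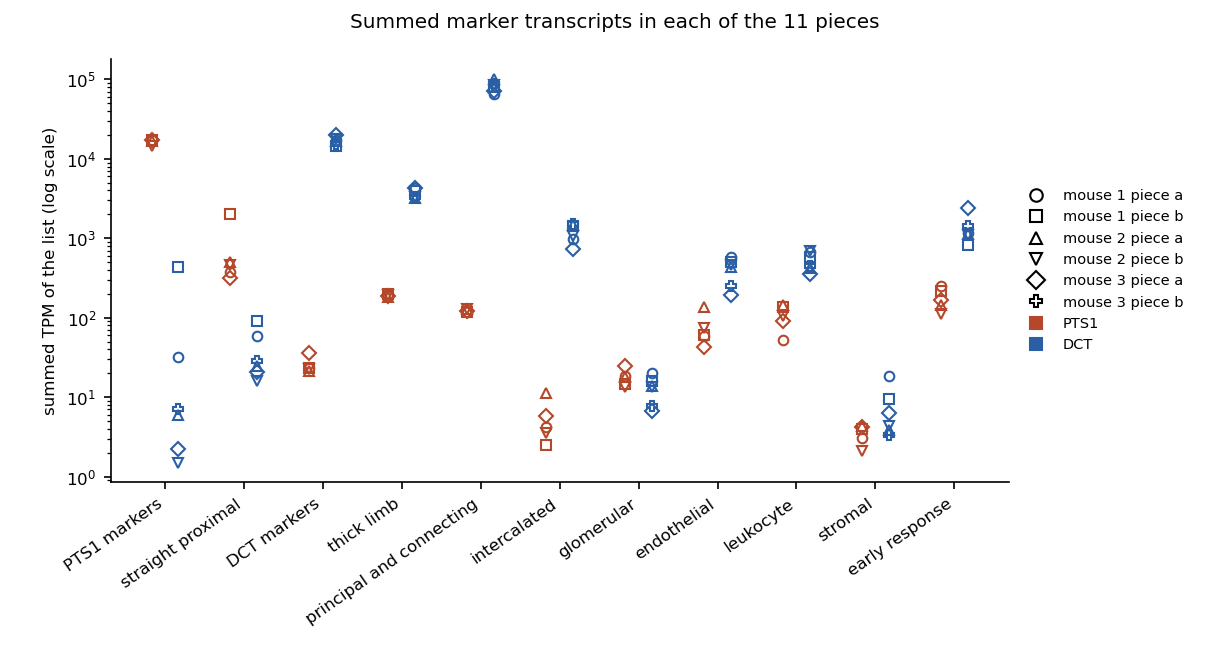
Summed TPM (log axis) of each marker list in every library of PTS1 (red) and DCT (blue), with a symbol for each mouse and piece. The second DCT library of mouse 1 stands out in the PTS1 markers at 433 TPM and the second PTS1 library of mouse 1 in the straight proximal genes at 2049 TPM, while intercalated, endothelial, leukocyte and early response sums are higher in DCT libraries throughout.

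Early response genes, which cells switch on within minutes of a stimulus, differed too. Of 18 such genes 10 were higher in DCT and 0 in PTS1 in limma, where 0 also had an unadjusted p below 0.05 toward PTS1, with a summed level of 823 to 2375 TPM in the DCT libraries and 111 to 250 TPM in the PTS1 libraries. Fos was at 0.487, 0.880 and 0.130 TPM in the PTS1 mice and 32.6, 50.9 and 204 TPM in the DCT mice, and the differences of Fos (-5.59 ± 1.48), Btg2 (-5.85 ± 0.60) and Ier3 (-7.60 ± 0.48) were the widest of the list. The part of these genes' response in the other differences was not tested. Odorant and vomeronasal receptor genes reached 1 TPM for 6 to 48 genes per PTS1 library and 0 to 1 gene per DCT library. Of them 1 was called. Replicates were close: across genes, the median Pearson correlation was 0.978 for pairs of libraries from different PTS1 mice, 0.990 for pairs from different DCT mice and 0.852 for pairs across segments. Sequencing depth cannot be read from TPM, so no counting error is given.

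The promoters of 2 phosphate cotransporter genes, of Slc12a3 and of Klk1, the gene with the widest difference, are shown because each transcript was far more abundant in one segment than in the other. They are the 250 bases before the RefSeq start on GRCm38.p6, written 5′ to 3′ on the gene's strand. Capitals mark the letters GTTAAT or ATTAAC, the core of the HNF1 motif on either strand, and AGGTCA or TGACCT, the core of the nuclear receptor motif bound by HNF4A and related factors. Slc34a1 is at chr13:55399398-55399647 on the + strand, Slc34a3 at chr2:25234235-25234484 on the - strand, Slc12a3 at chr8:94328958-94329207 on the + strand and Klk1 at chr7:44225110-44225359 on the + strand.
Slc34a1: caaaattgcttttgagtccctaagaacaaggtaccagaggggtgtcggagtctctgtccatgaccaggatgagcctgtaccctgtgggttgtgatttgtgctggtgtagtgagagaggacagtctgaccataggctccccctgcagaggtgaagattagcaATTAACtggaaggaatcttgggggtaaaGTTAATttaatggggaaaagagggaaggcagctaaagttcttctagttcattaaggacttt
Slc34a3: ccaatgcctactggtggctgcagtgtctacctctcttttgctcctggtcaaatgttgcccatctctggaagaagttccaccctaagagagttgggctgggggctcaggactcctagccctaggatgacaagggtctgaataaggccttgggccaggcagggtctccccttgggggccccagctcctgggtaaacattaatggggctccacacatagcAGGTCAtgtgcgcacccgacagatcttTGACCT
Slc12a3: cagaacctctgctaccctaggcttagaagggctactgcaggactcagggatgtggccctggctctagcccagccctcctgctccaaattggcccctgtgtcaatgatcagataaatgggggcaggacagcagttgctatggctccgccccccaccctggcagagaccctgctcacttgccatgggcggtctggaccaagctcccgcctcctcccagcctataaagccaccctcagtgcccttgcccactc
Klk1: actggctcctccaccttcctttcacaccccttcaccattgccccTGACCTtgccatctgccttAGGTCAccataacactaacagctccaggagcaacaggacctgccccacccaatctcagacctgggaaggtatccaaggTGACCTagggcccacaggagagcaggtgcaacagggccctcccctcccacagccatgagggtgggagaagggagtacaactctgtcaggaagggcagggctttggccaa
The Slc34a1 promoter held 2 HNF1 cores, the Slc34a3 promoter 2 nuclear receptor cores, the Klk1 promoter 3 nuclear receptor cores and the Slc12a3 promoter 0 of either. Among all 27025 genes with a RefSeq promoter, 7.49% held the HNF1 core in this window, against 11.5% of the 1141 genes called higher in PTS1 that had a promoter there and 5.39% of the 2653 called higher in DCT. With only the first promoter of each gene counted these shares were 6.52%, 9.29% and 3.92%. The nuclear receptor core was in 15.8% of all genes, 17.5% of those higher in PTS1 and 14.4% of those higher in DCT, and with only the first promoter counted in 13.8%, 13.8% and 10.9%. Of the 12 genes with the widest difference toward PTS1, 9 had a promoter in the table and 4 of these (Slc34a1, Miox, Acsm2 and Cyp2d26) held the HNF1 core, as did 1 of 8 (Umod) among the 12 toward DCT. The nuclear receptor core was held by 3 of these 9 and 3 of these 8. A gene with several promoters was counted when any held the core. A match is a run of letters, and binding was not tested.

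The segments differed in 5233 of 32879 tested genes, a background of 15.9%, of which 4635 were protein-coding. A gene was called where its adjusted p was below 0.05 and its log2 difference at least 1 in size. By these rules 1697 genes (5.16% of those tested) were higher in PTS1 and 3536 (10.8%) were higher in DCT. The split moved with the scaling: 32.4% of the calls were higher in PTS1 with TPM as deposited, 57.5% after median ratio rescaling, 46.3% after quantile normalization and 49.9% with a pseudocount of 0.1. Median ratio rescaling shifted the median difference of all genes by 0.13 and that of the 5765 genes at 10 TPM or more in both segments by 0.47, both toward PTS1. All 1697 PTS1 calls and 2303 of the 3536 DCT calls held under it. Very wide differences were more even, with 220 genes higher in PTS1 and 198 higher in DCT by a log2 difference of 5 or more. A level of at least 10 TPM in one segment and below 1 TPM in the other was seen for 276 PTS1 genes and 356 DCT genes.

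The widest differences toward PTS1 were those of secreted, metabolic and transport genes. Spp2, a secreted phosphoprotein, was at 3789, 3270 and 3724 TPM in the PTS1 mice and 11.3, 0.213 and 0.186 TPM in the DCT mice (log2 difference 10.43 ± 0.51). Spink1, a trypsin inhibitor, was at 5160 ± 542 TPM in PTS1 and 5.81 ± 7.18 TPM in DCT. Gatm, which makes the creatine precursor guanidinoacetate, was at 4556, 3757 and 4720 TPM against 23.1, 1.57 and 0.917 TPM. In all of these the PTS1 mice were above every DCT mouse, and DCT mouse 1 was the highest DCT mouse. Others of these 12 genes were Slc34a1, the gluconeogenic enzyme gene Fbp1, the glucose transporter Slc5a2, the inositol oxygenase Miox, Keg1, Acsm2, the brush border scaffold Pdzk1 and the cytochrome Cyp2d26, with log2 differences from 9.92 for Slc34a1 down to 8.79 for Cyp2d26. Acsm2 and Cyp2d26 have close relatives in the mouse genome, so the share of reads given to each copy is uncertain.

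Toward DCT the list was led by Klk1, tissue kallikrein, a secreted protease that frees kinins. Klk1 was at 1.43, 0.131 and 0.730 TPM in the PTS1 mice and at 44344, 55330 and 46292 TPM in the DCT mice, a log2 difference of -14.81 ± 0.40. It belongs to a large family of near-identical genes, so its share of the reads is uncertain. Calb1, the calcium buffer calbindin, was at 0.399, 0.489 and 1.31 TPM and 5088, 8854 and 7792 TPM, and S100g, a smaller calcium buffer, at 23.5, 26.7 and 34.9 TPM and 26933, 37249 and 31683 TPM. The mice of the segments were far apart for each of these genes. Klk1 and S100g had their highest mean in DCT but were also present in the connecting tubule, at 4203 ± 725 and 12638 ± 2443 TPM in CNT. In the cortical thick limb Klk1 was at 9233 ± 1313 TPM and S100g at 34.1 ± 5.03 TPM in CTAL. Clu (-12.00 ± 0.40), a chaperone of the tubular fluid, Defb1 (-11.78 ± 0.38), an epithelial defensin, the phosphoglycerate mutase Pgam2 (-11.18 ± 0.34), Tmem52b (-10.75 ± 0.28), the potassium channel Kcnj1 (-10.75 ± 0.28), Umod (-10.58 ± 0.43), and Wfdc15b (-10.40 ± 0.42) were others of the 12, with Slc12a3. Umod, the uromodulin gene of the thick limb, was at 1792 ± 408 TPM in DCT and 36933 ± 1690 TPM in CTAL.

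**Figure D2:**
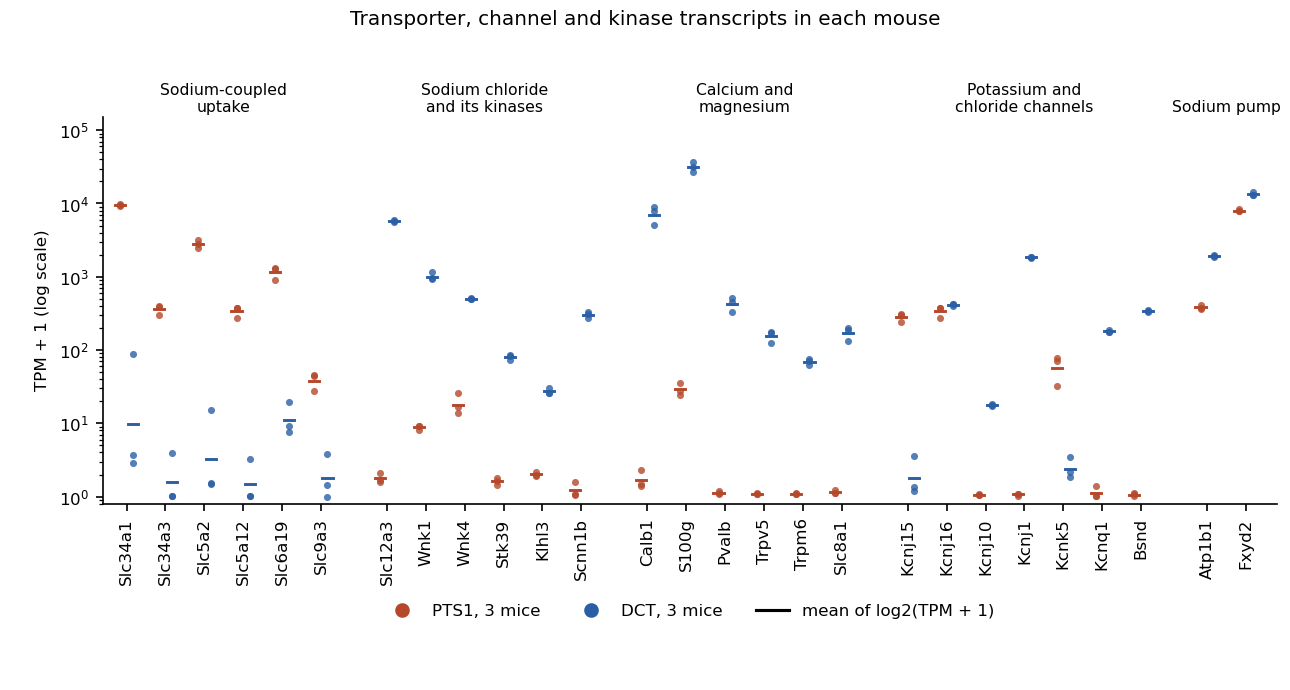
TPM + 1 (log axis) of 27 transporter, channel, kinase and pump genes in each PTS1 mouse (red) and DCT mouse (blue), with bars at the mean of log2(TPM + 1). Sodium-coupled uptake genes are high in PTS1 and the sodium chloride, calcium and magnesium genes high in DCT, while Kcnj16 is between 273 and 420 TPM in all 6 mice. The DCT mouse that lies highest for proximal genes is mouse 1.

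Most transcripts of apical sodium and solute uptake were higher in PTS1. Of 29 tested carriers, which include exchangers and proton-coupled carriers beside sodium cotransporters, 20 were higher in PTS1, 2 were higher in DCT and 7 were not called, with a median log2 difference of 3.38 against 0.09 over all tested genes. Slc5a2, which takes back most filtered glucose, was at 2760, 2458 and 3141 TPM in the PTS1 mice and 14.1, 0.470 and 0.520 TPM in the DCT mice (9.75 ± 0.54). Slc34a3, the second renal sodium phosphate cotransporter, was at 385, 304 and 398 TPM and 2.91, 0.00995 and 0.00995 TPM. Its DCT level came almost wholly from mouse 1. The lactate carrier Slc5a12 (338 ± 55.8 TPM in PTS1, 0.770 ± 1.3 TPM in DCT), the neutral amino acid carrier Slc6a19 (1168 ± 238 and 11.1 ± 6.37 TPM), the sodium-independent cystine exchanger pair Slc3a1 (7.27) and Slc7a9 (8.04), the sulfate carrier Slc13a1 (7.07), the vitamin C carrier Slc23a1 (5.91) and the glutamate carrier Slc1a1 (6.10) were all higher in PTS1. Slc6a20b was far more abundant in PTS1 than its near copy Slc6a20a (87.8 ± 6.45 and 5.74 ± 1.43 TPM), but reads can be split between them.

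The sodium proton exchanger Slc9a3, the main route of apical sodium entry, was at 45.2, 26.4 and 43.0 TPM in the PTS1 mice and 2.79, 0.457 and 0 TPM in the DCT mice (4.43 ± 0.33). Other carriers of the list were higher in DCT or not called. The inositol carrier Slc5a3 was higher in DCT (0.674 ± 0.0320 TPM in PTS1, 26.9 ± 2.59 TPM in DCT). Slc5a1, the glucose carrier of the straight proximal tubule, was called higher in DCT (-1.13), but the mice overlapped (0.540, 0.0700 and 0.05 and 5.73, 1.28 and 0.180 TPM), and without DCT mouse 1, which also held Slc12a1, the difference was -0.45 and not called. The widely used phosphate carriers Slc20a1 (10.6 ± 2.74 and 8.21 ± 1.17 TPM) and Slc20a2 (18.8 ± 1.95 and 30.5 ± 4.72 TPM) were not called, nor was the exchanger Slc9a8 (17.4 ± 3.64 and 18.8 ± 0.982 TPM).

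Most carriers that let solutes leave the cell were higher in PTS1. Of 13 tested basolateral carriers 9 were higher in PTS1 and 3 in DCT. Slc2a2, the high-capacity glucose exit carrier, was at 369, 248 and 339 TPM in the PTS1 mice and 2.47, 0.183 and 0.229 TPM in the DCT mice, whereas Slc2a1, its high-affinity counterpart, was at 8.6, 7.27 and 10.3 TPM and 76.4, 87.5 and 88.6 TPM. The groups did not overlap for either gene, and the differences were 7.52 ± 0.34 and -3.14 ± 0.24. The bicarbonate exit carrier Slc4a4 was at 589 ± 89.5 TPM in PTS1 and 1.81 ± 2.58 TPM in DCT. The dibasic amino acid exchanger Slc7a7 (7.15) and its heavy chain Slc3a2 (2.48) were higher in PTS1. The monocarboxylate carriers went opposite ways, Slc16a1 toward PTS1 (51.1 ± 22.6 and 0.567 ± 0.684 TPM) and Slc16a7 toward DCT (0.470 ± 0.257 and 710 ± 66.5 TPM), and the urate and glucose carrier Slc2a9 was higher in DCT (-2.88). Of 17 organic ion carriers and drug pumps 13 were higher in PTS1 and 0 in DCT, where 0 also had an unadjusted p below 0.05 in limma. The organic cation carrier Slc47a1 (331 ± 40.4 TPM in PTS1), the organic anion carrier Slc22a8 (257 ± 53.3 TPM) and the urate pump Abcg2 (652 ± 81.6 TPM) were among them, and Abcc4 was not called (13.3 ± 3.14 and 12.3 ± 1.31 TPM).

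The receptors of protein uptake were higher in PTS1, and several general endosomal genes were not called. Of 20 tested endocytosis genes 9 were higher in PTS1 and 2 in DCT, which became 11 and 0 under median ratio rescaling. The receptors megalin and cubilin, Lrp2 (107 ± 7.57 TPM in PTS1, 0.901 ± 0.558 TPM in DCT) and Cubn (27.1 ± 6.57 and 0.146 ± 0.227 TPM), cubilin's partner Amn (284 ± 31.0 and 1.47 ± 1.88 TPM) and the adaptor Dab2 (429 ± 41.2 and 35.2 ± 5.66 TPM) were higher in PTS1. The endosomal chloride exchanger Clcn5 (12.8 ± 2.37 and 13.5 ± 0.557 TPM), Rab7 (253 ± 19.0 and 221 ± 3.66 TPM) and Rab11a (322 ± 23.9 and 281 ± 15.3 TPM) were not called. Of the lysosomal proteases Ctsl was higher in PTS1 (2.21), Ctsd was higher in DCT (-1.29, not called under median ratio rescaling) and Ctsb was not called. Of 5 brush border scaffold genes, Pdzk1 (1638, 1564 and 1461 TPM in the PTS1 mice, 10.3, 0.707 and 0.583 TPM in the DCT mice), Pdzk1ip1 and Slc9a3r1 were higher in PTS1 and Slc9a3r2 in DCT (-1.87).

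The sodium chloride cotransporter came with its regulators in DCT. Of 21 tested genes of this group (Wnk3 fell below the filter) 16 were higher in DCT, 2 in PTS1 and 3 were not called, with a median difference of -3.76. The kinase gene Wnk1 was at 8.19, 7.08 and 8.10 TPM in the PTS1 mice and 1147, 957 and 918 TPM in the DCT mice, and Wnk4 at 15.6, 12.7 and 24.7 TPM and 509, 497 and 492 TPM. Their log2 differences were -6.84 ± 0.24 and -4.80 ± 0.25, and Wnk1 was at 130 ± 25.2 TPM in CTAL and 83.8 ± 16.7 TPM in CNT. TPM was deposited per gene, so the transcript forms of Wnk1 cannot be told apart, nor whether they encode the full kinase. Of the kinases that phosphorylate the cotransporter, Stk39, which encodes SPAK, was at 0.641, 0.439 and 0.790 TPM against 83.9, 72.6 and 80.8 TPM, but its relative Oxsr1 was not called (5.53 ± 1.15 and 8.74 ± 0.294 TPM). The ubiquitin ligase adaptor Klhl3, which marks WNK kinases for degradation, was higher in DCT (1.02 ± 0.113 and 26.4 ± 2.90 TPM), and its partner Cul3 was not called (93.5 ± 11.1 and 131 ± 7.39 TPM).

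Aldosterone-linked genes of the list were higher in DCT. The mineralocorticoid receptor Nr3c2 was at 1.59, 1.69 and 1.53 TPM in the PTS1 mice and 26.3, 24.1 and 26.2 TPM in the DCT mice (-3.35 ± 0.30), and Hsd11b2, the enzyme that shields it from glucocorticoid, at 0.0999 ± 0.139 and 255 ± 33.4 TPM. The sodium channel subunits Scnn1a (-7.39), Scnn1b (-7.96) and Scnn1g (-8.34) were at 220 ± 13.2, 303 ± 29.8 and 335 ± 28.3 TPM in DCT. Principal and connecting cell genes were in the same libraries, and their part in the Scnn1b, Scnn1g and Hsd11b2 levels was not tested. The phosphatase inhibitor Ppp1r1a was at 0.208 ± 0.124 TPM in PTS1 and 885 ± 68.5 TPM in DCT. Slc12a2, a cotransporter of the basolateral side, was higher in PTS1 (1.15).

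Channels and the sodium pump showed a change of subunits. Of 22 tested genes 11 were higher in DCT and 3 in PTS1. Kcnj16, a basolateral potassium channel subunit, was abundant in both segments, at 377, 273 and 372 TPM in the PTS1 mice and 403, 418 and 420 TPM in the DCT mice, and was not called (95% confidence interval -0.73 to 0.14). Its usual partner in DCT, Kcnj10, was at 0.0836, 0.0600 and 0.0400 TPM and 16.4, 16.8 and 17.5 TPM (-4.07 ± 0.23), and Kcnj15 was at 301, 313 and 242 TPM and 2.64, 0.333 and 0.178 TPM (7.31 ± 0.39). No PTS1 mouse reached 1 TPM for Kcnj10, and no DCT mouse exceeded 3 TPM for Kcnj15. The chloride channel subunit barttin, Bsnd, was at 0.0744, 0.105 and 0.0200 TPM in the PTS1 mice and 348, 337 and 330 TPM in the DCT mice. The pump subunit Atp1b1 (385 ± 27.7 and 1898 ± 51.4 TPM) was higher in DCT, and the regulator Fxyd2 did not reach the size threshold (8009 ± 302 and 13511 ± 726 TPM, -0.75 ± 0.20). Kcnk5, a proximal alkaline-activated potassium channel, was higher in PTS1 (59.4 ± 24.5 and 1.51 ± 0.877 TPM), while Kcnk1 (131 ± 7.44 TPM in DCT) and Kcnq1 (180 ± 7.99 TPM) were higher in DCT.

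Of 18 tested genes of calcium and magnesium handling 15 were higher in DCT and 1 in PTS1, with a median difference of -5.12. The magnesium channel Trpm6 was at 0.0900, 0.130 and 0.0700 TPM in the PTS1 mice and 62.5, 69.5 and 74.6 TPM in the DCT mice (-5.99 ± 0.23), and the apical calcium channel Trpv5 at 0.0696, 0.120 and 0.0800 TPM and 123, 176 and 167 TPM (-7.15 ± 0.27). Parvalbumin, Pvalb, a calcium buffer of the early DCT, was at 0.119, 0.0909 and 0.200 TPM and 505, 326 and 449 TPM. The basolateral sodium calcium exchanger Slc8a1 was at 0.119, 0.225 and 0.110 TPM and 131, 189 and 196 TPM. No PTS1 mouse exceeded 1 TPM for any of these 4 genes. Cnnm2 and Slc41a3, linked to basolateral magnesium movement, were also higher in DCT (-4.33 and -5.01), whereas the calcium pump Atp2b1 was not called (30.4 ± 1.5 and 43.8 ± 2.05 TPM). The magnesium-regulating growth factor Egf was at 2.69, 4.15 and 2.97 TPM and 3606, 1908 and 2782 TPM, while its receptor Egfr was the gene higher in PTS1 (19.3 ± 2.68 and 3.78 ± 0.497 TPM). Egf was at 16498 ± 2264 TPM in CTAL. In the second DCT library of mouse 2 and both of mouse 3, Egf was at 2034, 3616 and 2140 TPM. The thick limb marker Slc12a1 was at 0.23, 2.03 and 0.55 TPM in these libraries and higher in the other DCT libraries. The part of thick limb cells in the Egf level was not tested.

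Genes of the mineral hormones were spread over both segments, with 6 of 13 tested genes higher in PTS1 and 5 in DCT. The klotho gene Kl, the coreceptor of FGF23, was at 150, 124 and 130 TPM in the PTS1 mice and 1742, 2252 and 2266 TPM in the DCT mice (-3.94 ± 0.36). Of the FGF receptors, Fgfr1 was at 9.47 ± 2.33 TPM in PTS1 and 23.7 ± 0.551 TPM in DCT, a call lost under median ratio rescaling, while Fgfr3 (20.2 ± 4.01 and 0.772 ± 0.268 TPM) and Fgfr4 (18.4 ± 3.17 and 0.676 ± 0.293 TPM) were higher in PTS1. The parathyroid hormone receptor Pth1r was high in both segments and was not called (374, 407 and 281 TPM in the PTS1 mice, 494, 699 and 509 TPM in the DCT mice, 95% confidence interval -1.33 to -0.02). The vitamin D receptor Vdr was higher in DCT (62.5 ± 12.2 and 473 ± 64.6 TPM). Both enzymes that act on the vitamin D hormone were PTS1 transcripts: Cyp27b1, which activates it, at 78.4, 57.3 and 80.7 TPM in PTS1, and Cyp24a1, which inactivates it, at 173, 28.1 and 45.1 TPM, with every DCT mouse below 1 TPM for both. Cyp24a1 was spread widely between PTS1 mice, mouse 1 lying far above the others.

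Of 24 tested hormone receptor genes 7 were higher in each segment. The angiotensin receptor Agtr1a (54.7, 48.6 and 51.1 TPM in PTS1, 1.97, 0.337 and 0 TPM in DCT) and the adrenergic receptor Adra1a (17.6 ± 3.20 and 0.263 ± 0.214 TPM) were higher in PTS1, as were the insulin receptor Insr (33.8 ± 1.41 and 14.9 ± 2.37 TPM) and the growth hormone receptor Ghr (1.43, not called without PTS1 mouse 1 or 3 or without DCT mouse 2 or 3, at 1.38 to 1.42). In DCT the glucagon receptor Gcgr was at 180, 150 and 144 TPM, against 0.0496, 0.0149 and 0.0400 TPM in PTS1. The vasopressin receptors Avpr2 (0.0992 ± 0.0878 and 39.0 ± 4.86 TPM) and Avpr1a (0.0267 ± 0.0462 and 49.9 ± 5.27 TPM) and the adrenergic receptor Adrb1 (-2.91) were also higher in DCT. Avpr1a is a known intercalated cell receptor, and intercalated cell genes were in the DCT libraries. Avpr2 had higher means in CNT (631 ± 60.1 TPM) and CTAL (61.7 ± 13.8 TPM) than in DCT. The part of other cells in the levels of these 2 receptors was not tested.

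Of 26 tested junction genes 15 were higher in DCT and 4 in PTS1. The pore-forming claudin Cldn2 was at 270, 268 and 222 TPM in the PTS1 mice and 4.76, 0.440 and 0.869 TPM in the DCT mice, and Cldn10 at 184, 181 and 176 TPM and 2.99, 0.229 and 0.623 TPM. Cldn1, a sealing claudin, was also higher in PTS1 (14.7 ± 5.10 and 0.306 ± 0.273 TPM). The claudins highest in DCT were Cldn8 (0.386, 0.355 and 0.290 TPM in PTS1, 821, 766 and 849 TPM in DCT) and Cldn7 (1.36 ± 0.588 and 210 ± 4.62 TPM), with Cldn3 and Cldn4 at 33.5 ± 4.56 and 19.5 ± 2.14 TPM. Cldn16, which forms cation pores, was called toward DCT at a low level (2.69 ± 3.33 TPM in DCT, 0 ± 0 TPM in PTS1), a call that was lost without DCT mouse 1 (-0.75) and with a pseudocount of 5 (-0.58). The pore-forming Cldn15 was not called (-1.12 ± 0.44), but was called toward DCT without DCT mouse 3 (-1.41), without the second PTS1 and DCT libraries of mouse 1 (-1.16) and in 4 fits with other filters or groups (-1.12). Of the cadherins, Cdh1, epithelial cadherin, was at 2.32, 1.46 and 2.10 TPM and 439, 404 and 422 TPM, and Cdh2, neural cadherin, at 10.7, 7.64 and 10.0 TPM and 0.285, 0 and 0.00499 TPM. Epcam was at 0.332 ± 0.0267 TPM in PTS1 and 283 ± 18.6 TPM in DCT, and the tight junction genes Ocln (-2.28), Tjp3 (-4.75) and Cgn (-2.33) were higher in DCT. Cdh16, the kidney cadherin, was high in both (1128 ± 177 and 2293 ± 80.0 TPM), and its call toward DCT (-1.03) was lost under median ratio rescaling and without PTS1 mouse 2 (-0.90).

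Acid and base genes gave 13 of 29 higher in DCT and 9 in PTS1. The 9 higher in PTS1 were Slc4a4 and Slc9a3 above, the carbonic anhydrases Car14 (406 ± 51.6 and 1.56 ± 2.47 TPM), Car4 (107 ± 44.3 and 9.57 ± 4.82 TPM), Car2 (1279 ± 119 and 507 ± 30.8 TPM) and Car3 (6.27), the anion exchanger Slc26a6 (2.24), the bicarbonate cotransporter Slc4a7 (1.03) and a pump subunit given below. The Slc4a7 call was lost without PTS1 mouse 1 (0.96) and with a pseudocount of 5 (0.37). The carbonic anhydrases did not all go this way: Car15 (0.514, 0.802 and 0.260 TPM in PTS1, 530, 506 and 362 TPM in DCT) and Car8 (-2.92) were higher in DCT, and Car12 was not called (245 ± 24.4 and 270 ± 22.6 TPM). In DCT Slc26a4, or pendrin, was at 274, 289 and 209 TPM (1.68, 2.31 and 1.63 TPM in PTS1), and Slc4a1, Slc4a9 and the proton pump subunits Atp6v1b1 and Atp6v0d2 were higher with differences of -6.42, -6.79, -6.84 and -6.60. Each of these 5 is an intercalated cell gene of the list summed above, and pendrin reached 2474 ± 322 TPM in CNT. Atp6v1b1 was also present in the cortical thick limb, at 172 ± 37.3 TPM in CTAL beside 182 ± 15.6 TPM in DCT, so it cannot tell intercalated cells from those of these segments. The part of intercalated cells in these values was not tested. The ubiquitous pump subunit Atp6v1b2 went the other way (454 ± 64.1 and 189 ± 4.76 TPM). Of 12 ammonia genes, Glul, which makes glutamine, was higher in PTS1 (303, 402 and 250 and 19.9, 19.4 and 22 TPM). The ammonia channels Rhbg and Rhcg were at 348 ± 41.9 and 901 ± 40.4 TPM in DCT and below 1 TPM in every PTS1 mouse. In the first and second DCT library of mouse 3 Rhbg was at 191 and 486 TPM and Rhcg at 762 and 1019 TPM. Pendrin was at 123 and 354 TPM there. Car15 was at 221 and 592 TPM, Car2 at 290 and 851 TPM and Car12 at 154 and 386 TPM in the same libraries. The part of intercalated and connecting cells in the DCT levels of Rhbg, Rhcg and these carbonic anhydrases was not tested.

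Of 10 tested aquaporins 3 were higher in PTS1 and 2 in DCT. Aqp1, the main proximal water channel, was modest and uneven in PTS1 (15.3, 30.4 and 7.94 TPM) and below 1 TPM in every DCT mouse. Aqp11 (82.9 ± 2.52 and 6.98 ± 0.382 TPM) and the glycerol channel Aqp7 (19.8 ± 2.57 and 0.0707 ± 0.106 TPM) were higher in PTS1, and Aqp3 was not called (50.7 ± 5.97 and 71.5 ± 11.3 TPM). Aqp6, an intercalated cell gene, was listed at 0 in all PTS1 mice and was at 9.90, 10.3 and 10.4 TPM in the DCT mice.

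Most called transcripts of gluconeogenesis and fructose use were higher in PTS1, and most called glycolysis transcripts in DCT. Of 14 tested genes of gluconeogenesis and fructose use 12 were higher in PTS1 and 1 in DCT (median difference 4.08), and of 22 glycolysis genes 10 were higher in DCT and 2 in PTS1. After median ratio rescaling the first list gave 12 toward PTS1 and 0 toward DCT, and glycolysis 8 toward DCT and 3 toward PTS1. Pck1, the entry enzyme of gluconeogenesis, was at 1173, 2152 and 1077 TPM in the PTS1 mice and 9.72, 1.12 and 0.559 TPM in the DCT mice, Fbp1 at 4770, 4658 and 3705 TPM and 26.6, 1.21 and 1.10 TPM, and the glucose-releasing phosphatase G6pc at 696, 862 and 629 TPM and 9.44, 1.20 and 1.35 TPM. The fructose enzymes Khk (3.87) and Sord (3.37) were also higher in PTS1. Hexokinase, Hk1, was at 1.33, 1.39 and 0.380 TPM in the PTS1 mice and 266, 257 and 268 TPM in the DCT mice, and pyruvate kinase, Pkm, at 1.91, 2.07 and 1.63 TPM and 1559, 1514 and 1600 TPM. The phosphofructokinases Pfkp (7.60 ± 0.609 and 171 ± 4.21 TPM) and Pfkm (20.7 ± 2.40 and 125 ± 3.80 TPM) and the mutase Pgam2 (0.453, 0.225 and 0.240 and 2797, 3250 and 3008 TPM), better known from muscle, were higher in DCT. Steps shared with gluconeogenesis were closer: Tpi1, Pgk1, Pgam1 and Gpi1 were not called, and Gapdh was higher in PTS1 (1958 ± 43.5 and 897 ± 28.5 TPM), a call lost after quantile normalization. The other glycolysis gene higher in PTS1 was Ldha, at 1230 to 1565 TPM in the PTS1 libraries and 615 to 731 TPM in the DCT libraries.

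Mitochondrial energy genes had a median difference of -0.69 with TPM as deposited and -0.21 after median ratio rescaling. Transcripts of the mitochondrial genome went the other way: they made up 5.62% to 8.93% of TPM in the PTS1 libraries and 4.68% to 5.20% in the DCT libraries, with no overlap, and their part in these differences was not tested. Of 28 tested genes of the citric acid cycle, mitochondrial biogenesis and creatine kinases 10 were higher in DCT and 0 in PTS1 in limma, where 0 also had an unadjusted p below 0.05 toward PTS1, and only 2 of these calls were left after median ratio rescaling. Those 2 were the creatine kinases Ckb (0.631, 1.45 and 1.44 TPM in the PTS1 mice, 869, 593 and 789 TPM in the DCT mice) and Ckmt1 (3.63, 5.48 and 5.65 and 879, 1072 and 999 TPM), which buffer ATP and belong to neither the cycle nor biogenesis, so 0 genes of those groups stayed called. Pdha1 (292 ± 8.90 and 625 ± 19.5 TPM) and Ppargc1a (50.2 ± 8.43 and 127 ± 25.3 TPM) were higher in DCT with TPM as deposited and not called after median ratio rescaling, and Cs did not reach the size threshold (-0.84 ± 0.16). Of 29 fatty acid and peroxisome genes 10 were higher in PTS1 and 4 in DCT. Ppara (62.0 ± 8.78 and 6.75 ± 1.26 TPM), the factor that drives fatty acid use, and Cat (470 ± 0.585 and 149 ± 14.2 TPM), the catalase of peroxisomes, were higher in PTS1, while the muscle form of carnitine palmitoyltransferase, Cpt1b, was at 0.160, 0.126 and 0.140 TPM in PTS1 and 126, 102 and 113 TPM in DCT. Cpt1a was also higher in DCT (103 ± 16.9 and 406 ± 14.6 TPM). So was Hadha, at 41.5 to 53.9 TPM in the PTS1 libraries and 138 to 170 TPM in the DCT libraries. Hadhb, at 112 to 139 and 381 to 406 TPM, was the last of the 4.

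**Figure D3:**
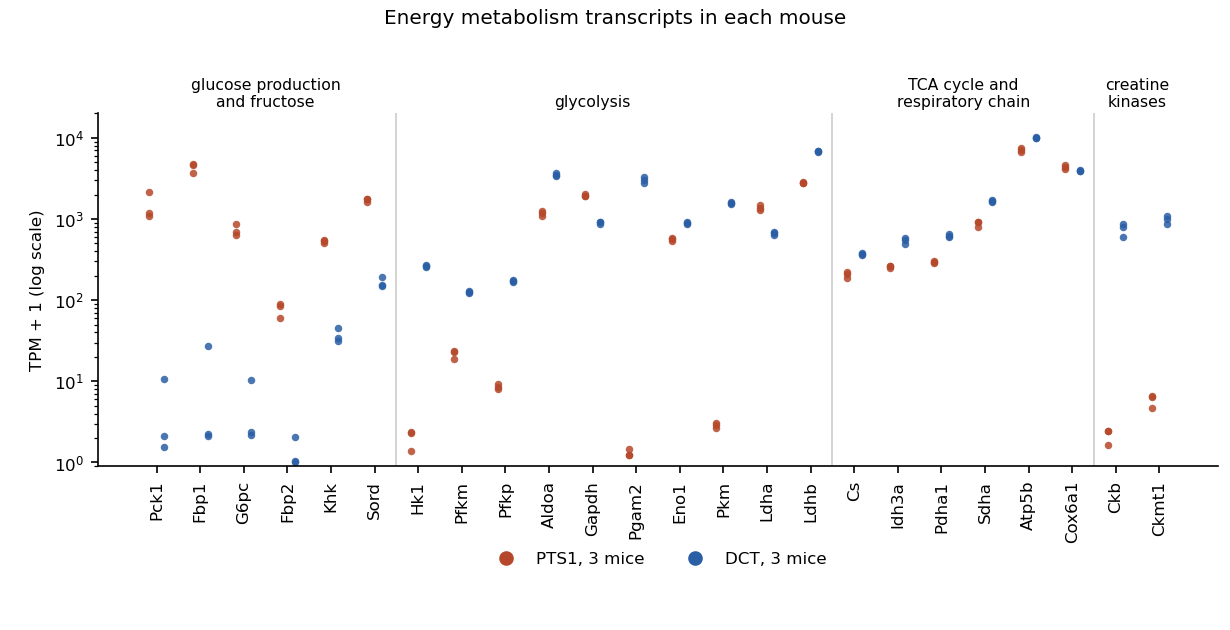
TPM + 1 (log axis) of 24 energy metabolism genes in each PTS1 mouse (red) and DCT mouse (blue). Glucose production and fructose genes lie above in PTS1; Hk1, Pfkm, Pfkp, Pgam2, Pkm and both creatine kinases lie above in DCT; the citric acid cycle and respiratory chain genes of the segments lie close together.

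Most other synthetic and detoxifying enzymes were higher in PTS1, with 28 of 34 tested higher in PTS1 and 2 in DCT (median difference 4.01). Gpx3, the secreted glutathione peroxidase, was the most abundant of them, at 77472, 74285 and 100598 TPM in the PTS1 mice, and still reached 1965, 1031 and 970 TPM in the DCT mice (6.06 ± 0.61). Miox (9146 ± 1102 TPM in PTS1, 21.2 ± 30.2 TPM in DCT), the arginine-making enzymes Ass1 (7.41) and Asl (3.36), the glycine conjugating enzyme Glyat (8.26) and the dopamine-making decarboxylase Ddc (5.5) were higher in PTS1. Agt, angiotensinogen, was at 11.9 ± 0.545 TPM in PTS1 and 0.154 ± 0.257 TPM in DCT. The exceptions were Gclc (41.6 ± 2.18 and 339 ± 35.7 TPM), which makes the glutathione precursor, and neprilysin, Mme (2.59, 2.79 and 2.22 TPM in PTS1, 47.4, 37.1 and 49.3 TPM in DCT), both higher in DCT. Ggt1, whose product breaks down glutathione, was not called (170 ± 74.6 and 273 ± 27.3 TPM).

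Transcription factors divided 10 to PTS1 and 19 to DCT among 46 tested. Hnf4a, a regulator of proximal genes, was at 86.3, 60.3 and 86.1 TPM in the PTS1 mice and 1.27, 0.0247 and 0.0984 TPM in the DCT mice (5.83 ± 0.31). Osr2 (80.9 ± 22 and 0.415 ± 0.580 TPM), Maf (16.6 ± 1.87 and 0.241 ± 0.207 TPM), the bile acid receptor Nr1h4 (129 ± 31.6 and 6.75 ± 0.545 TPM) and the liver X receptor gene Nr1h3 (47.6 ± 1.39 and 6.91 ± 0.0551 TPM) were also PTS1 genes. In DCT Emx1 was at 86.0, 72.9 and 74.2 TPM (2.65, 2.51 and 4.30 TPM in PTS1), Gata3 at 50.8, 49.1 and 52.0 TPM (0.456, 1.68 and 0.240 TPM), and Tfap2b, Sall3 and Sim1 at 42.6 ± 6.33, 28.0 ± 2.15 and 10.5 ± 2.32 TPM, each below 1 TPM in every PTS1 mouse. Lhx1 (-2.81), Esrrg (-1.69) and Tfcp2l1 (-2.63) were higher in DCT, as was Foxi1 (114 ± 20.1 TPM), which defines intercalated cells, whose part in its level was not tested. Pax8, Cux1 and Esrra were at similar means in both segments (45.8 ± 6.29 and 51.5 ± 7.06, 112 ± 8.65 and 109 ± 3.38, 47.9 ± 5.47 and 46.3 ± 6.31 TPM) and were not called.

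Clock genes differed in both directions, 8 of 17 higher in PTS1 and 5 in DCT. Arntl, the positive arm of the clock, was at 1.35, 1.67 and 2.79 TPM in the PTS1 mice and 28.4, 34.7 and 40.9 TPM in the DCT mice, and Dbp, one of its output genes, at 98.9, 72.1 and 66.1 TPM and 6.53, 4.87 and 3.68 TPM. Neither overlapped, with log2 differences of -3.62 and 3.74 (limma, adjusted p = 0.000422 and 0.00233). Hlf (3.39) and Tef (2.0) went with Dbp, Nfil3 (-2.30) with Arntl, and Nr1d1 was not called (27 ± 11 and 34.5 ± 10.8 TPM). The SE was 0.98 for Dbp and 0.82 for Arntl. Cry2 was called toward PTS1 (1.09) with all mice, but not on leaving out any of the 6 mice (1.05 to 1.11). As the segments were taken to come from different mice, segment and animal cannot be told apart for genes that follow the time of day.

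Secreted proteins gave 12 of 27 tested genes higher in DCT and 6 in PTS1. Kng2, a kininogen and the substrate of kallikrein, was at 3.06, 3.51 and 2.55 TPM in the PTS1 mice and 3043, 2852 and 2951 TPM in the DCT mice (-9.52 ± 0.47), beside the Klk1 values above. Spp1, osteopontin, was abundant in both but higher in DCT (2477, 2060 and 3174 and 10130, 13451 and 11993 TPM). Wfdc2 (1241 ± 136 TPM in DCT) and Fgf9 (-3.16) were higher in DCT, and Vegfa was too (42.2 ± 5.65 and 115 ± 9.73 TPM), but not under median ratio rescaling. The 6 higher in PTS1 included Guca2b, uroguanylin (716, 808 and 543 TPM in PTS1, 12, 1.12 and 1.46 TPM in DCT), Timp3 (1076 ± 137 and 188 ± 18.4 TPM) and Igfbp1 (43.8 ± 20.8 and 0.103 ± 0.154 TPM), and the others were Agt, Pdgfb (8.75 ± 2.99 and 2.31 ± 0.634 TPM) and Hbegf (8.80 ± 2.76 and 3.49 ± 0.437 TPM). The Hbegf call was lost without PTS1 mouse 1 (0.90) and without DCT mouse 2 (1.03), and with a pseudocount of 5 neither Hbegf (0.68) nor Pdgfb (0.89) was called. The injury marker Lcn2 was below 1 TPM in both (0.201 ± 0.216 and 0.165 ± 0.0569 TPM).

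**Figure D4:**
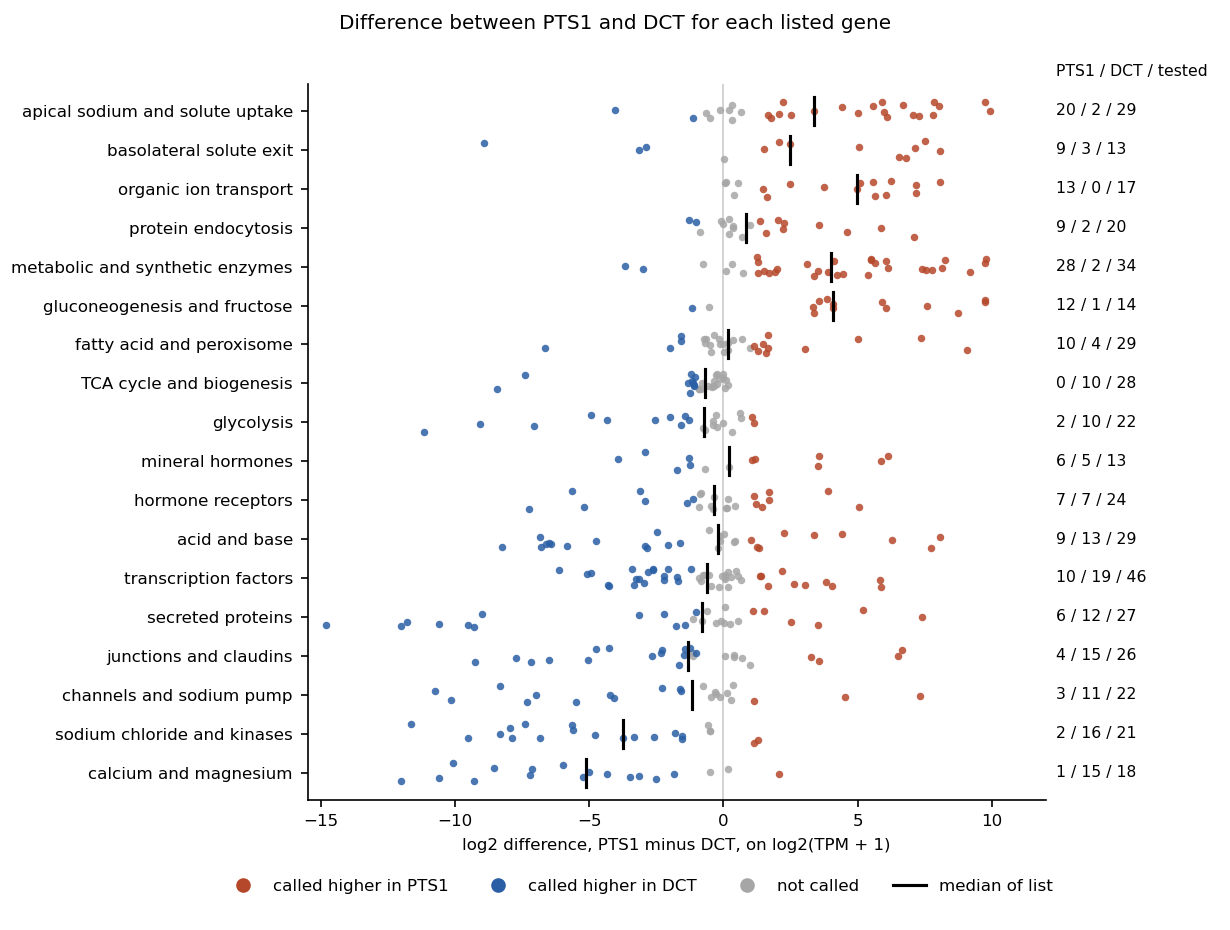
Log2 difference, PTS1 minus DCT, of each tested gene in 18 lists, with calls toward PTS1 in red, toward DCT in blue and others in grey, and a bar at each list's median. Numbers at the right give genes higher in PTS1, higher in DCT and tested, from 20, 2 and 29 for apical uptake to 1, 15 and 18 for calcium and magnesium.

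A second question was what the coiled segments share against the straight segment beside each. Few genes did so: 87 of 32879 (0.265%) were higher both in PTS1 than in the straight proximal tubule PTS2 (5 mice) and in DCT than in CTAL, and 133 (0.405%) were lower in both. With a pseudocount of 5 these counts were 45 and 73. Rnf186, a ubiquitin ligase, was at 131 ± 55.6 TPM in PTS1 and 0.666 ± 0.282 TPM in PTS2, and at 86.0 ± 19.0 TPM in DCT and 1.01 ± 0.473 TPM in CTAL. Tbx2, a developmental transcription factor, was at 49.96 ± 15.4 and 0.258 ± 0.0385 TPM in the proximal pair and 87.9 ± 5.41 and 0.952 ± 0.176 TPM in the distal pair (adjusted p = 4.19e-17). Chrna4, a nicotinic receptor subunit, followed the same course (55.4 ± 9.21, 0.115 ± 0.0428, 25 ± 0.945 and 1.57 ± 0.758 TPM in PTS1, PTS2, DCT and CTAL), and PTS1 and DCT held its highest and second highest mean of the 15 groups. Gpx3 was at 7674 ± 1271 TPM in PTS2 and 47.6 ± 18.8 TPM in CTAL, each below the convoluted segment beside it. Angpt1 and Pon3 completed the 6 with the widest smaller difference. Rnf186, Tbx2 and Pon3 had higher means in CNT (478 ± 105, 166 ± 10.0 and 103 ± 3.44 TPM) than in DCT.

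Among genes lower in both, Slc5a1 was at 92.9 ± 14.8 TPM in PTS2 and 387 ± 53.5 TPM in CTAL, against 0.220 ± 0.277 TPM in PTS1 and 2.40 ± 2.94 TPM in DCT. The ATP-gated channel gene P2rx5 was at 18.3 ± 1.27 and 49.7 ± 8.88 TPM in the straight segments and 0.504 ± 0.275 and 1.25 ± 0.283 TPM in the convoluted ones. Irx2, a homeobox gene, was at 13.4 ± 2.29 and 79.2 ± 7.28 TPM against 0.442 ± 0.0749 and 0.0292 ± 0.0318 TPM (adjusted p = 9.15e-16). Umod and Cxcl12 were also named by size. The convoluted segments were not alike in Umod, which was at 1337 to 2291 TPM in the DCT libraries and 0.04 to 0.38 TPM in the PTS1 libraries. Carry-over of thick limb RNA into its level in other segments was not tested. Without the second PTS1 and the second DCT library of mouse 1, 90 genes were higher in both convoluted segments and 141 were lower.

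**Figure D5:**
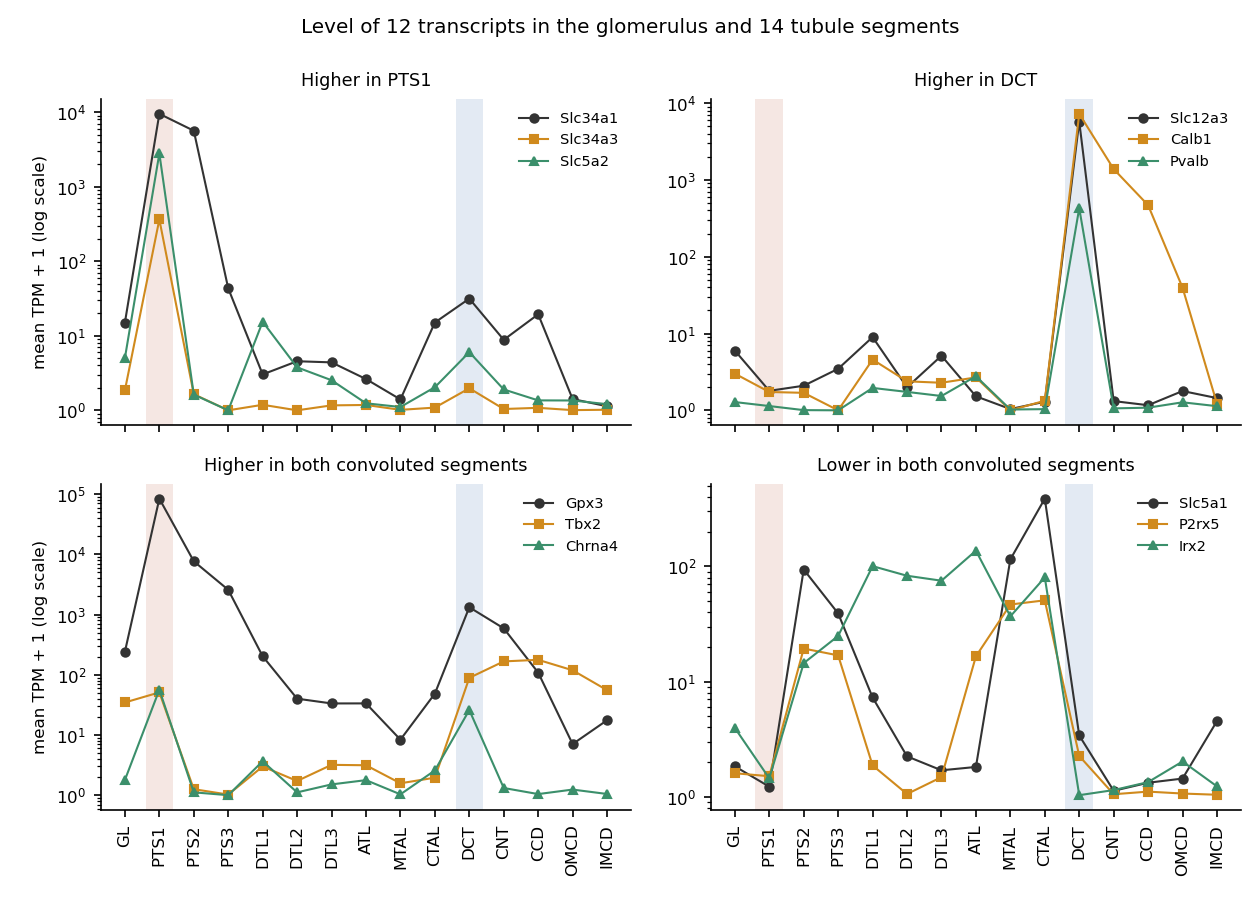
Mean TPM + 1 (log axis) of 12 genes in the glomerulus (GL) and 14 tubule segments in order along the nephron, with PTS1 shaded red and DCT shaded blue. Slc34a3 and Slc5a2 peak in PTS1, Slc12a3 and Pvalb in DCT; Gpx3, Tbx2 and Chrna4 are higher in each shaded segment than in the straight segment beside it (PTS2, CTAL), and Slc5a1, P2rx5 and Irx2 lower.

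Many genes were at like levels. Of the 5765 genes at 10 TPM or more in both segments 2916 (50.6%) had a 95% confidence interval of the difference inside -1 to 1, and 1421 were called (418 higher in PTS1, 1003 in DCT). The most abundant of the like genes were the nuclear RNA Malat1 and parts of the respiratory chain. Atp5b, a subunit of ATP synthase, was at 7083 ± 436 TPM in PTS1 and 10044 ± 168 TPM in DCT (interval -0.85 to -0.16), Cox6a1 at 4394 ± 208 and 3941 ± 98.0 TPM (interval -0.13 to 0.45), and Cox8a at 3781 ± 282 and 3482 ± 16.8 TPM. Igfbp7, a secreted binding protein, was at 3360 ± 443 and 3206 ± 166 TPM. Atp5g3, Uqcr11, Cox6b1, Ndufa1 and Uqcrq were the rest of the 10. Under median ratio rescaling 3543 genes met the same rule.

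The level of the marker genes along the nephron is given as a description. Slc34a1 was at 5632 ± 694 TPM in PTS2 and 42.3 ± 9.90 TPM in PTS3, the segment after it. Slc34a3 was at 0.645 ± 0.220 TPM and Slc5a2 at 0.62 ± 0.245 TPM in PTS2. The mean of Slc12a3 in the other 14 groups was at most 7.98 ± 6.23 TPM, in the descending limb group DTL1, whereas Calb1 ran on into CNT (1383 ± 340 TPM) and the cortical collecting duct (467 ± 50.2 TPM). Over the 15 group means, among 3286 genes of at least 50 TPM in PTS1 or DCT, the genes most like Slc34a1 were Ugt2b38 (Pearson's r = 0.973), Dleu7, Slc25a15, Ttr and F13b, and those most like Slc12a3 were Pvalb (r = 0.962), Maob (0.820), Cnnm2, Trpm7 and Dnaja4. Ugt2b38 has near-identical relatives that can share its reads.

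Related genes with a proximal and a wider or distal form were listed in 12 pairs chosen for that difference, so their counts restate the choice and are a description. On the proximal side 10 were higher in PTS1 and 0 in DCT, and on the other side 9 were higher in DCT and 2 in PTS1, which became 7 and 2 under median ratio rescaling. The 2 of the distal side that were higher in PTS1 were Fbp2 (76.9 ± 15.7 and 0.368 ± 0.596 TPM) and Cyp24a1. Slc4a2, a widely used anion exchanger set beside Slc4a4, was higher in DCT (15.9 ± 2.06 and 68.7 ± 3.30 TPM), and Pklr, the pyruvate kinase gene set beside Pkm, was higher in PTS1 (19.6 ± 4.30 and 0.113 ± 0.196 TPM).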

How the data were processed

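RNA of microdissected mouse tubule was amplified and sequenced. The authors deposited 1 table of TPM for 54532 genes in the 93 microdissected libraries; per the submitters' processing notes STAR 2.5.4a and RSEM 1.3.0 were among the tools, and the genome build is not given in the sources used here. TPM keeps no depth, so its counting error is unknown, and amplification and transcript length models can shift levels between genes. Libraries of a mouse and segment were averaged as log2(TPM + 1). The PTS2 library numbered mouse 2 carries a piece letter that matches no sample title, and was placed by its segment name. Genes at 1 TPM or more in at least 3 of the 53 mice were fitted with limma 3.58.1 (R 4.3.3; empirical Bayes with trend) on all 15 groups, with Benjamini-Hochberg adjustment over 32879 genes. A TPM level per mouse is that mean turned back to TPM. A gene was called at an adjusted p below 0.05 and a log2 difference of 1 or more in size. For genes shared by the convoluted segments both contrasts, PTS1 minus PTS2 and DCT minus CTAL, had to pass in the same direction, and the larger p of each gene was adjusted. With 3 mice against 3, an exact permutation test of 1 gene cannot go below p = 0.1, so such tests were not used. That mice of the segments are different animals was inferred from the series' total of 53 mice and is not certain. Genes named were the 12 of widest difference in each direction at 50 TPM or more, the 6 shared genes in each direction, the 10 most abundant like genes, the 5 closest in pattern, and genes of 36 lists. The members and lists were chosen with earlier results of these data known. The fit was checked on simulated data, and no result of that check is reported here. Alternatives were other pseudocounts, filters, scalings and fits, a replicate block, and leaving out each PTS1 or DCT mouse. Promoters came from RefSeq on GRCm38.p6. Some genes that the naming rule selects are not reported here.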

Additional observations from a re-analysis of the deposited data

Results flagged for a closer look

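Single libraries were examined in 28 series of 5 or 6 libraries (12 summed marker lists and 2 counts of detected genes in each segment), and 4 series held a library far from the others, where chance gives about 1 in 20; libraries of the same mouse are not independent. The sum of the 8 PTS1 markers was 14686 TPM in the second PTS1 library of mouse 2, below the other 4 PTS1 libraries. The sum of the 8 DCT markers was 35.5 TPM in the PTS1 library of mouse 3, above the other PTS1 libraries. The sum of 10 straight proximal genes was 2049 TPM in the second PTS1 library of mouse 1. The sum of the 8 PTS1 markers was 433 TPM in the second DCT library of mouse 1.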

How the results depend on the processing

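No named gene that was called changed sign under the alternatives run. Of the 46 named genes that were not called 20 changed sign under at least 1 of them, 14 of these under median ratio rescaling (Kcnj16 from -0.29 to 0.19, Uqcr11 from -0.27 to 0.22, Pgk1 from -0.38 to 0.10). The balance of the calls turned: 32.4% were higher in PTS1 with TPM as deposited and 57.5% after median ratio rescaling, and the median difference of genes at 10 TPM or more in both segments went from -0.39 to 0.08. The median over all tested genes went from 0.09 to -0.34 in the fit of 8 groups and -0.46 with the low-value filter set on the 2 segments alone. With a pseudocount of 0.1, 8507 genes were called, 4244 of them higher in PTS1. With a pseudocount of 5, 3134 were called, 1081 higher in PTS1 and 2053 in DCT, with 45 genes higher and 73 lower in both convoluted segments. After median ratio rescaling 3143 genes were higher in PTS1 and 2326 in DCT. The cause of these shifts was not tested. Leaving out 1 PTS1 or DCT mouse at a time gave 4886 to 5259 called genes, 1613 to 1679 higher in PTS1, 3245 to 3609 higher in DCT, 72 to 83 higher and 107 to 139 lower in both convoluted segments, and 2553 to 2863 at like level. No PTS2 or CTAL mouse was left out. The tests of shared convoluted genes have no value in a fit of PTS1 and DCT mice alone.

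Equal mouse numbers in PTS1 and DCT were taken to name different animals. Deviations of same-numbered mice correlated at 0.04, 0.07 and 0.04, each above all pairs of other numbers (-0.06 to 0.02). Because the mean of each segment's mice was taken off, these values depend on each other, and their order decides nothing about pairing. These correlations were small, and the main fit did not pair the samples by number. With mouse number as a replicate block 5291 genes were called, 1745 higher in PTS1 and 3546 in DCT, with 82 higher and 131 lower in both convoluted segments and 2954 at like level.

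TPM gives no read depth, so differences between genes below about 1 TPM cannot be graded, and 3 mice per segment limit the precision of each value.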
